A study of Mus musculus with 6 samples.

Results

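The genes described here are the integrins, laminins and thrombospondins, with the matrix glycoproteins fibronectin (Fn1), vitronectin (Vtn), tenascin-C (Tnc) and osteopontin (Spp1). They were taken as the protein-coding genes of the GENCODE M21 annotation whose symbols belong to these families, which gave 45 of the 54886 genes listed for each library. The set held 18 integrin alpha chains, 8 integrin beta chains, 11 laminin chains, 4 thrombospondins and the 4 other matrix genes. Members were matched by name, but the families themselves were selected on the measured difference in expression between PM2.5 and control cells, which was known beforehand, so the values of that comparison are a description of these libraries and support nothing further. A mean FPKM of at least 1 over the 6 libraries was reached by 19 of the 45 genes, and the other 26 are given by their reads.

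RNA was sequenced from GC-2spd cells, an immortalised line made from mouse spermatocytes of the BALB/c background. In the control group (n = 3) the cells were left untreated in normal medium, for which the study's methods also name PBS, and in the PM2.5 group (n = 3) they received fine particulate matter at 100 μg/mL for 48 h. Cells of both groups were from the same purchased line and grew in the same serum-supplemented medium, with no genetic change between the groups. The comparison asked which transcripts differed after exposure to PM2.5. The labels do not say whether the replicates were separate cultures, so p-values measure only the spread between these libraries, which may be technical. RNA came from bulk cultures, in which fewer cells of a type and less RNA per cell cannot be told apart.

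The FPKM values corresponded to 16209352 to 18003201 reads per library. Control replicate 2 stood apart. Its log2(FPKM + 1) values correlated with those of the other 5 libraries at Pearson's r of 0.732 to 0.779 across the 11884 genes tested, whereas the other controls correlated with each other at 0.992, and 14.5% of its reads fell on mitochondrial genes against 1.65% to 1.95% elsewhere. PM2.5 replicate 3 also stood apart, with r of 0.950 and 0.958 to the other PM2.5 libraries and 0.972 to each of control replicates 1 and 3. The labelled cell type was not borne out by its markers. Of 16 spermatocyte and germ cell genes, 0 reached a mean FPKM of 1, 12 stayed under 3 reads in all libraries, and Spo11, Hormad1, Dazl, Piwil1, Mael and Pgk2 were at 0 throughout. Their summed FPKM was 0.497 to 2.76 in controls and 0.103 to 0.643 in PM2.5 cells. Of 10 fibroblast and peritubular genes, 6 reached that level, with a summed FPKM of 690 to 769 in controls and 393 to 654 in PM2.5 cells. Among the other lists, 1 of 8 Sertoli genes (Gata4), 1 of 7 Leydig genes (Star) and 2 of 10 leukocyte genes (Coro1a and Cd68) reached it, and 0 of 7 endothelial, 0 of 6 epithelial and 0 of 5 platelet genes did.

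Integrins are transmembrane receptors, each made of an alpha and a beta chain, that link the matrix outside the cell to the actin cytoskeleton at focal adhesions. Laminins are trimers of an alpha, a beta and a gamma chain and form the sheet on which a basement membrane is built. Thrombospondins are secreted matricellular proteins that modulate adhesion, protease activity and growth factor activation rather than build the matrix. In the testis a basement membrane surrounds the seminiferous tubule, and Sertoli and peritubular cells contribute to it.

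Upstream sequence was examined for the core of the xenobiotic response element, the site of the aryl hydrocarbon receptor, which binds aromatic compounds carried on combustion particles. The letters searched were GCGTG, on both strands, in the 250 bases before each RefSeq start site (GRCm38.p6). They were present at 28.2% of the 32851 start sites of all genes. Of the 45 genes, 29 had an entry in the table, and 8 of these 29 held the letters at 1 or more start sites, which is 23.5% of their 34 start sites. At the genes tested the letters were found at 2 of 16 start sites, those of Itgb5 and Lamb1. The sequences of 4 genes whose PM2.5 values lay below every control are shown because the results turn on the first of them, Thbs2, because Itga11 was the low-level gene with this order, and because Lamb1 and Itgb5 carried the letters, marked in capitals. Each is written 5′ to 3′ on the strand of the gene and ends before the first annotated exon. The regions are chr17:14694263-14694512 on the minus strand for Thbs2, and chr9:62677605-62677825, chr12:31265043-31265233 and chr16:33829415-33829664 on the plus strand for Itga11, Lamb1 and Itgb5.
Thbs2: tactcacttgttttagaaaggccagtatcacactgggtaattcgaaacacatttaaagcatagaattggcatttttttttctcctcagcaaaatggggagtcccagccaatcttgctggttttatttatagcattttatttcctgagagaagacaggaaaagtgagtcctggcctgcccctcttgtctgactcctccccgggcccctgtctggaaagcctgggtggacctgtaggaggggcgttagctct
Itga11: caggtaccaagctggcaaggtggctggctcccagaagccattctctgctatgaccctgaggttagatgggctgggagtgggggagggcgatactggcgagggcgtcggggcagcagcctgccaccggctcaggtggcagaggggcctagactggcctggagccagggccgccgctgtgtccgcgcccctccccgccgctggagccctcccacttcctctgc
Lamb1: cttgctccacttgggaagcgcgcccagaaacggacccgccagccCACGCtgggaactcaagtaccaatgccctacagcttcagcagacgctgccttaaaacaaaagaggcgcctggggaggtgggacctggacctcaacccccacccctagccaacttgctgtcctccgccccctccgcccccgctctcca
Itgb5: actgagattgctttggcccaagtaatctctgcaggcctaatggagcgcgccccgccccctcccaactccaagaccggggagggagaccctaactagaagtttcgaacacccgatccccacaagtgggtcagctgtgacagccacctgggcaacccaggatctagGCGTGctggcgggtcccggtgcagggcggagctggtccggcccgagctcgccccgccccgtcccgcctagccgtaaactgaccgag
The Thbs2 and Itga11 windows held 0 copies of the letters. Lamb1 held 1 copy on the reverse strand, starting 206 bases before its RefSeq start, and Itgb5 held 1 copy on the strand given, starting 86 bases before its start. These matches describe the letters only, and binding was not measured here.

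Thrombospondin 2 transcripts were lower in all 3 PM2.5 libraries than in all 3 controls, and Thbs2 was the gene of the set with the largest difference downward in both fits. The other 18 genes tested differed less downward, and for several abundant ones, among them Fn1, Itgb1 and Itgav, the sign of the difference turned when control replicate 2 was left out. With all 6 libraries, limma on log2(FPKM + 1) called 0 of the 19 genes (a call needs an adjusted p under 0.05 together with a log2 fold change beyond 1 in either direction), where 0.0926% of the 11884 genes tested were called. At an unadjusted p under 0.05 there were 4 (3.8% of all genes), of which Thbs2, Tnc and Lamb1 were on the lower side. Run on the reads recovered from the FPKM, limma voom called 0 of the 19 and had 2 at that limit. Of all 11740 genes in that fit, 0 were called and 403 were at that limit. Without control replicate 2, limma called 1 gene, Thbs2, where 0.707% of all genes were called, and 8 genes were at an unadjusted p under 0.05, as were 15.9% of all genes.

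**Figure D1:**
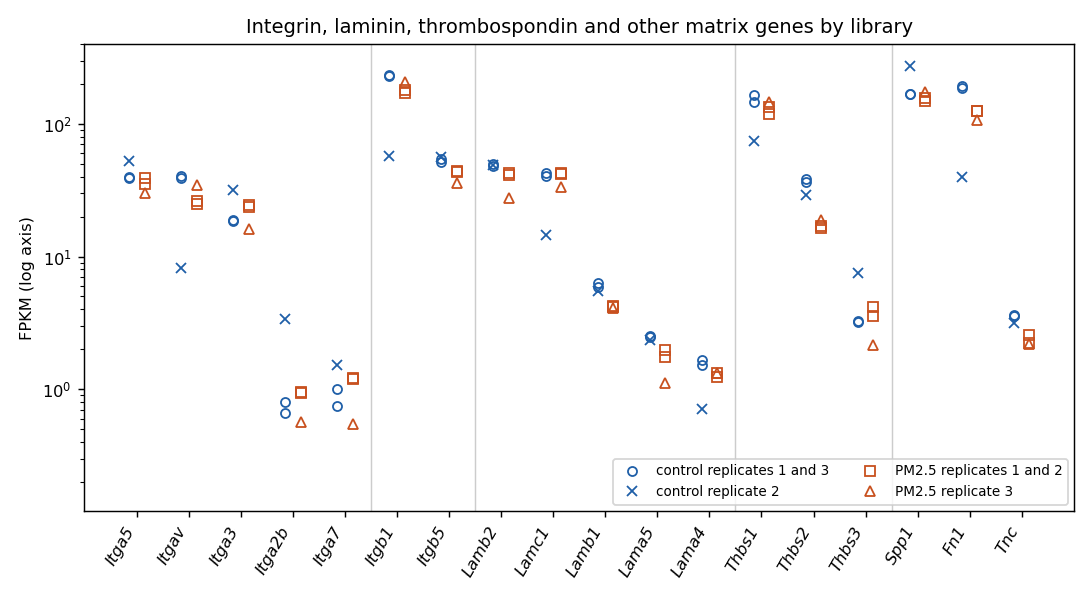
FPKM on a log axis for 18 of the genes whose FPKM averaged 1 or more, in each of the 6 libraries (blue, control; orange, PM2.5; cross, control replicate 2; triangle, PM2.5 replicate 3), with vertical lines between gene classes. Control replicate 2 sits far below the other controls for Itgav, Itgb1, Lamc1 and Fn1, while the 3 PM2.5 values of Thbs2 (16.5 to 18.9) sit below all controls (29.2 to 38.1).

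Counted by order of the deposited FPKM alone, the PM2.5 values lay below every control for 6 of the 19 genes, where 6.85% of all genes did so. Those below were Thbs2, Tnc, Lamb1, Lamb2, Lama5 and Itgb5. This order depends on the scaling of control replicate 2. There 1 read was worth 77.1 in FPKM times exon length, against 53.9 to 56.4 elsewhere, though it had the fewest reads. Scaling to the recovered totals lowers it beside the other libraries, and the order was not recounted on that scale. That scaling gave log2 fold changes of -0.80 for Thbs2 and -0.33 to -0.26 for the others with all 6 libraries. Orders given below are also of deposited FPKM. Without control replicate 2 the count was 10, where 19.6% of all genes did so, and Fn1, Itgb1, Itgav and Lama4 joined those below. The median log2 fold change of the 19 genes was -0.31 with all 6 libraries, beside 0.02 over all genes tested, and -0.22 without control replicate 2, beside -0.01. Scaling to the recovered totals moved the median of all genes to 0.13 and that of the 19 to -0.18 with all 6 libraries. Quantile normalization gave -0.10 for the 19 beside 0.02 for all genes, and leaving out PM2.5 replicate 3 gave -0.14 beside 0.02.

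Among the matrix ligands, fibronectin is the large glycoprotein bound by integrins of the alpha 5 and alpha v type. Fn1 (chromosome 1, 71585520 to 71653200 on GRCm38) was at 192, 39.8 and 186 FPKM in control replicates 1, 2 and 3 and at 124, 125 and 107 in PM2.5 replicates 1, 2 and 3. The PM2.5 values were close together and lay between control replicate 2 and the other controls. Against control replicates 1 and 3 the log2 fold change was -0.67 (SE 0.11, adjusted p = 0.0859 in limma), that is 1.59 times more in those controls, and with all 6 libraries it was 0.07 (SE 0.63).

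Osteopontin, a phosphorylated ligand of alpha v integrins, had the highest mean level of the 45 genes, at rank 213 of the genes tested, though without control replicate 2 its mean of 163 FPKM was below the 203 of Itgb1. Spp1 was at 169, 273 and 167 FPKM in controls and at 148, 156 and 174 in PM2.5 cells. The groups overlapped, and the log2 fold change was -0.31 (SE 0.29) with all 6 libraries and -0.08 (SE 0.11) without control replicate 2. Of its exon bases, 18.8% are shared with Gm42793 on the same strand, so some of its reads could belong to that gene. Tenascin-C, a matricellular protein with little presence in most adult tissue, was far lower. Tnc was at 3.61, 3.17 and 3.53 FPKM in controls and at 2.55, 2.21 and 2.19 in PM2.5 cells, with no overlap and a log2 fold change of -0.42 (SE 0.16) with all 6 libraries. Vitronectin, the serum adhesion protein, was not detected. Vtn had 0 reads in each library, which allows at most an FPKM of 0.0796 to 0.114, the worth of 3 reads, and this floor covers counting error only.

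Laminin transcripts came mainly from the beta 2 and gamma 1 chains. Lamb2 was at 49.7, 49.1 and 48.2 FPKM in controls and at 42.7, 41.5 and 27.8 in PM2.5 cells. The controls lay within a narrow range in deposited FPKM, though on 5611, 3874 and 5285 reads. PM2.5 replicate 3 was well below the other PM2.5 libraries. Lamc1, the gamma chain shared by most laminin trimers, was at 42.8, 14.6 and 40.6 FPKM in controls and at 41.9, 42.6 and 33.4 in PM2.5 cells. Apart from control replicate 2, its values overlapped between the groups, with a log2 fold change of -0.09 (SE 0.14). Lamb1, the other widely used beta chain, was at 5.87, 5.46 and 6.31 FPKM in controls and at 4.27, 4.15 and 4.12 in PM2.5 cells. Its PM2.5 libraries were almost level and all below the controls, with a log2 fold change of -0.41 (SE 0.16) with all 6 libraries and -0.45 (SE 0.09) without control replicate 2. The ratio of Lamb1 to Lamb2 overlapped between the groups, at 0.111 to 0.131 in controls and 0.1001 to 0.148 in PM2.5 cells.

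Of the chains of the epithelial laminins, Lamb3 had 11 to 67 reads and Lama3 had 14 to 29 reads per library, and both overlapped between the groups.

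The alpha chains that carry most of a laminin's receptor contacts were low. Lama5 was at 2.48, 2.35 and 2.52 FPKM in controls and at 1.99, 1.75 and 1.11 in PM2.5 cells, with no overlap and PM2.5 replicate 3 the lowest. Its log2 fold change was -0.44 (SE 0.17) without control replicate 2. Lama4, the alpha chain of mesenchymal and vascular laminins, was at 1.65, 0.709 and 1.53 FPKM in controls and at 1.24, 1.33 and 1.33 in PM2.5 cells. Its PM2.5 values lay between control replicate 2 and the other controls. In each library Lamb2 exceeded Lama5 by a ratio of 19.1 to 20.9 in controls and 21.5 to 25.0 in PM2.5 cells, with no overlap, whereas the ratio of Lamb2 to Lama4 overlapped, at 30.1 to 69.3 and 20.9 to 34.3.

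Of the thrombospondins, Thbs1 was the most abundant and Thbs2 the one that was called. Both encode trimeric proteins that bind CD47 and inhibit vessel growth, and Thbs1 is in addition an activator of latent TGF-beta. Thbs2 (chromosome 17, 14665500 to 14694235, minus strand of GRCm38) was at 38.1, 29.2 and 36.3 FPKM in control replicates 1, 2 and 3 and at 16.5, 17.1 and 18.9 in PM2.5 replicates 1, 2 and 3. These rested on 2650 to 4950 reads in controls and 2062 to 2398 in PM2.5 cells. Every control lay above every PM2.5 library, with means of 34.5 ± 4.71 and 17.5 ± 1.28 FPKM (SD, n = 3 each). Without control replicate 2, Thbs2 fell by 1.05 on the log2 scale (SE 0.10, adjusted p = 0.0220 in limma), and the mean of control replicates 1 and 3 was 2.12 times that of PM2.5. With all 6 libraries the log2 fold change was -0.93 (SE 0.20, adjusted p = 0.488), which is also under the fold limit. Under the alternatives without control replicate 2 that kept at least 2 libraries per group, the adjusted p in limma ran from 0.000278 to 0.199. The log2 fold change ran from -1.10 to -1.001 under all alternatives tried without that library. The call was lost when PM2.5 replicate 1 or 2 was also left out (adjusted p = 0.1203 and 0.199). In those fits 0 of all 11884 genes were called, so the loss was not particular to Thbs2. Its log2 fold change there was -1.01 and -1.03. Without PM2.5 replicate 3 the call was kept, where 356 of all genes were called. Leaving out control replicate 1 or 3 as well left 1 control, with log2 fold changes of -1.01 and -1.08. The call was also lost with no filter on low values (0.0556) and when replicate number was a blocking factor (0.1004). The same held for blocking together with a correction for GC content and length (0.0698). In these settings 53, 92 and 51 of all genes were called. Without control replicate 2, blocking leaves PM2.5 replicate 2 alone under its number, so that library does not enter the comparison. The log2 fold change with the block alone, -1.03, is that of the fit without PM2.5 replicate 2. Thbs2 shares no exon bases with another annotated gene.

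Thbs1 was at 146, 74.2 and 165 FPKM in controls and at 134, 119 and 147 in PM2.5 cells, so its groups overlapped, and the log2 fold change was -0.22 (SE 0.13) without control replicate 2 and 0.13 (SE 0.35) with it. The ratio of Thbs2 to Thbs1 within a library needs no scaling between libraries. It was 0.261, 0.393 and 0.220 in controls and 0.123, 0.144 and 0.129 in PM2.5 cells, with no overlap. Control replicate 2, which had low values of both genes, had the highest ratio. Thbs3, a pentameric member of the family, was at 3.26, 7.497 and 3.20 FPKM in controls and at 4.17, 3.56 and 2.17 in PM2.5 cells, where control replicate 2 was the highest and PM2.5 replicate 3 the lowest. Of its exon bases, 6.59% overlap Mtx1 on the opposite strand. Thbs4 had 1 to 8 reads per library.

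**Figure D2:**
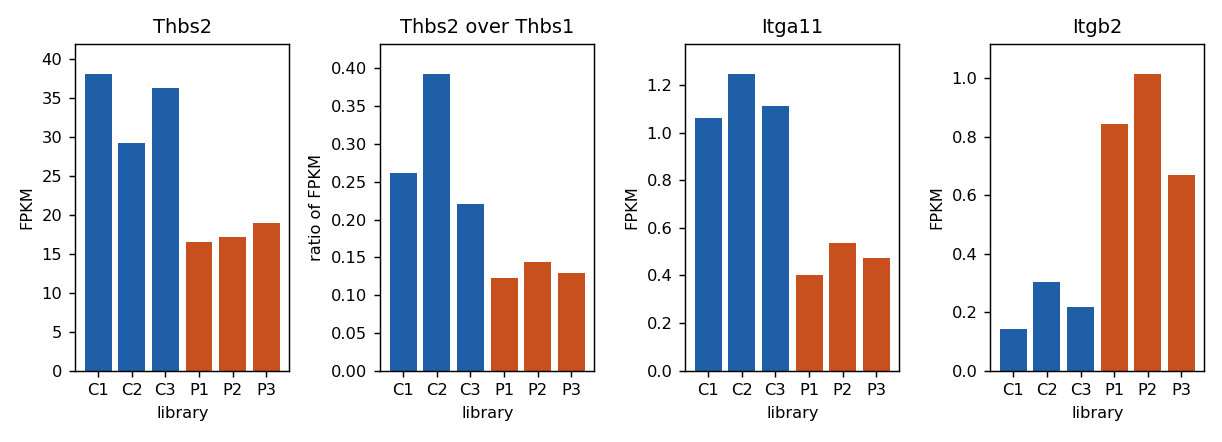
Bars from 0 for each library (C1 to C3, control replicates; P1 to P3, PM2.5 replicates) show the FPKM of Thbs2, the ratio of Thbs2 to Thbs1, and the FPKM of Itga11 and Itgb2. The PM2.5 bars are lower than every control bar in the first 3 panels and higher than every control bar for Itgb2, whose axis ends near 1 FPKM.

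Among the receptors, integrin beta 1 pairs with the largest number of alpha chains and was the most abundant chain. Itgb1 was at 233, 57.5 and 228 FPKM in controls and at 169.6, 178 and 207.5 in PM2.5 cells. Control replicate 2 was lower than every other library by a wide margin, at 0.249 of the mean of the other controls. The log2 fold change was -0.32 (SE 0.12) without it and 0.34 (SE 0.58) with it. Itgb5, which pairs with alpha v to bind vitronectin, was at 54.0, 56.0 and 51.3 FPKM in controls and at 43.1, 44.1 and 35.8 in PM2.5 cells. Here control replicate 2 lay beside the other controls in deposited FPKM, and all PM2.5 values were lower. In reads it had 2581, against 3560 and 3286 in the other controls and 2734, 2783 and 2296 in PM2.5 cells. The log2 fold change was -0.39 (SE 0.19) with all 6 libraries and -0.36 (SE 0.12) without control replicate 2, neither of which was called. Scaled to the recovered totals it was -0.26 with all 6 libraries.

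The alpha chains at appreciable levels were those of the fibronectin, vitronectin and laminin receptors. Itga5, the fibronectin receptor chain, was at 40.0, 52.3 and 38.9 FPKM in controls and at 39.3, 35.3 and 30.1 in PM2.5 cells, and its groups overlapped. Itgav, the chain shared by the vitronectin-type receptors, was at 40.2, 8.19 and 39.4 FPKM in controls and at 26.4, 25.1 and 34.5 in PM2.5 cells. Control replicate 2 held 0.206 of the level in the other controls, and the log2 fold change was -0.47 (SE 0.16) without it and 0.24 (SE 0.61) with it. Itga3, a laminin receptor chain, was at 18.6, 31.7 and 18.7 FPKM in controls and at 24.5, 23.6 and 16.1 in PM2.5 cells. Control replicate 2 was the highest and PM2.5 replicate 3 the lowest, and the log2 fold change was 0.17 (SE 0.20) without control replicate 2 and -0.08 (SE 0.30) with it. Because of these libraries the ratio of Itga5 to Itgav ran from 0.989 to 6.39 in controls and from 0.873 to 1.49 in PM2.5 cells.

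Itga2b, the platelet fibrinogen receptor chain, and Itga7, a laminin receptor of muscle, passed the limit on low values only through control replicate 2. Itga2b was at 0.662, 3.41 and 0.803 FPKM in controls and at 0.954, 0.940 and 0.568 in PM2.5 cells. Itga7 was at 0.999, 1.51 and 0.747 FPKM in controls and at 1.19, 1.21 and 0.547 in PM2.5 cells. Their means over the other 5 libraries were 0.786 and 0.939 FPKM, and the groups overlapped for both.

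**Figure D3:**
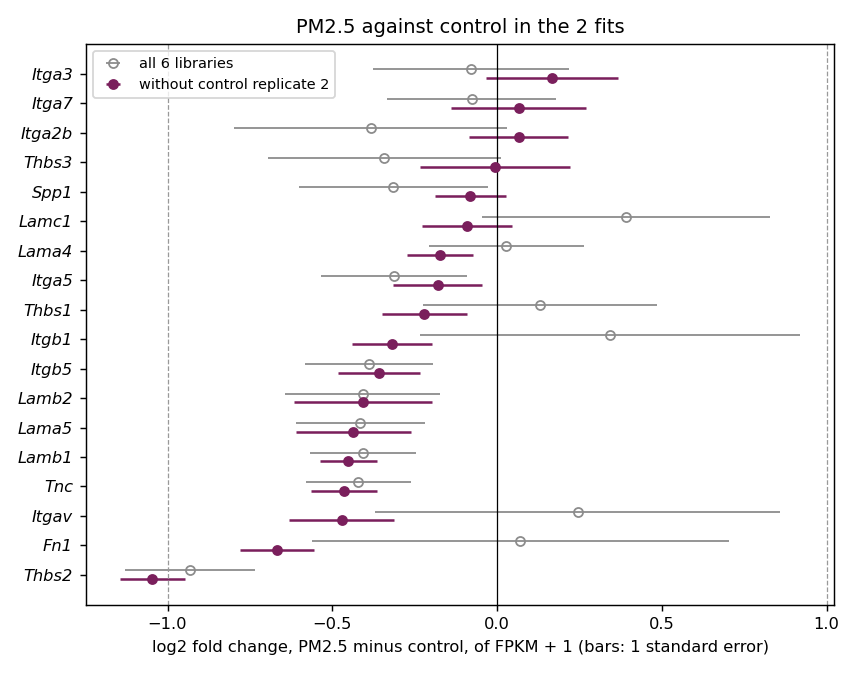
Log2 fold change (PM2.5 minus control, on log2(FPKM + 1)) of 18 of the genes in limma with all 6 libraries (open grey circles) and without control replicate 2 (filled circles), with bars of 1 standard error and dashed lines at the fold limit. Leaving out control replicate 2 shortens most bars and moves Fn1, Itgav, Itgb1, Thbs1, Lamc1 and Lama4 from above 0 to below it, while Thbs2 stays the lowest in both.

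The genes below the limit on low values included chains typical of leukocytes, epithelia and muscle. Of these 26 genes, 3 had 0 reads in all libraries (Itgad, Itgam and Vtn), and 23 had at least 1 read. The count for Itgam, the macrophage alpha chain, is uncertain because 68.7% of its exon bases are shared with Gm49368 on the same strand. PM2.5 and control values did not overlap for 2 of the 23, Itga11 and Itgb2, where 7.7% of all genes below the limit that had a read did not overlap. Without control replicate 2 there were 9, where 15.6% of such genes did not overlap. The added ones were Itga1, Itgb8, Lama1, Lama2 and Itga4 (at most 3 reads) on the lower side and Itgae and Itgb7 on the higher. Both shares take in genes with as little as 1 read, which can tie at 0 between the groups. They were not matched to the 23 genes on reads.

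Itga11 encodes a collagen receptor chain of fibroblasts. It had 101, 83 and 103 reads in controls and 37, 49 and 44 in PM2.5 cells, which is 1.06, 1.25 and 1.11 FPKM against 0.404, 0.538 and 0.475. The highest PM2.5 value was well under the lowest control. Its mean in control replicates 1 and 3 was 2.30 times that of PM2.5, and in limma with no limit on low values the log2 fold change was -0.54 (SE 0.14, adjusted p = 0.807) with all 6 libraries and -0.50 (SE 0.10, adjusted p = 0.230) without control replicate 2. The fibroblast and peritubular markers, given above, were also lower in summed FPKM in every PM2.5 library than in every control, but not member by member. Col1a2 was lower in each PM2.5 library (115 to 135 FPKM against 199 to 202), as was Col3a1 (7.52 to 9.61 against 13.6 to 17.8). Col1a1 was low in PM2.5 replicate 3 alone (193 against 412 to 452 in the other 5 libraries). The groups overlapped for Pdgfra, Pdgfrb and Acta2. Acta2 was higher in PM2.5 cells (58.1 to 59.5) than in control replicates 1 and 3 (41.6 and 43.3) but lower than in control replicate 2 (88.3). The part of these markers in the values of Itga11, Thbs2 and the other matrix genes was not tested. Itgb2 encodes the beta chain of the leukocyte integrins. It had 8, 12 and 12 reads in controls and 46, 55 and 37 in PM2.5 cells, which is 0.141, 0.303 and 0.218 FPKM against 0.844, 1.02 and 0.671. All PM2.5 libraries were higher, and their mean was 4.69 times that of control replicates 1 and 3. The log2 fold change was 0.59 (SE 0.14, adjusted p = 0.807) with all 6 libraries, a scale on which the added 1 FPKM understates the change of so low a gene.

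The alpha chains that pair with integrin beta 2 were at or near the floor. Itgal had at most 5 reads in a library, Itgax had 2 to 13, and Itgad and Itgam had 0. The leukocyte markers Ptprc, Adgre1, Laptm5, Cd3e, Spi1 and Tyrobp were at 0 in all libraries, and the summed FPKM of the leukocyte list was 4.28 to 5.38 in every library except control replicate 2, where Coro1a and Cd68 took it to 29.7.

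The other collagen and laminin receptor chains were low and scattered. Itga1, a collagen receptor chain, had 141, 58 and 147 reads in controls and 42, 73 and 92 in PM2.5 cells, so its PM2.5 values lay below control replicates 1 and 3, while in FPKM PM2.5 replicate 3 (0.274) lay above control replicate 2 (0.240). Itgb8, an activator of latent TGF-beta together with alpha v, had 85, 7 and 61 reads in controls and 16, 41 and 37 in PM2.5 cells. Lama2, the laminin alpha chain of muscle, had 64, 14 and 47 reads in controls and 14, 36 and 23 in PM2.5 cells. For these genes control replicate 2 lay within or below the PM2.5 range. Itga6 had 28 to 69 reads per library, Itga10 (with 33.5% of its exon bases shared with Gm42957 on the same strand) 18 to 66, Itgae 9 to 21, Itgb7 5 to 22, Itgb3 4 to 33, Itgb4 13 to 22 and Lama1 4 to 32. Itga2 had 0 to 16 reads, and Itga9, Itga8, Itga4, Itgb6 and Lamc3 had at most 9.

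The genes that work with these families were read from lists of their partners. With 25 of 30 focal adhesion genes tested, 0 were called in either fit, and the median log2 fold change was 0.21 with all 6 libraries and 0.05 without control replicate 2. Vinculin, which couples talin to actin, was the clearest case of a value set by 1 library. Vcl was at 15.7, 0.320 and 14.8 FPKM in controls and at 14.3, 14.4 and 10.8 in PM2.5 cells. Its log2 fold change was 1.00 (SE 1.00) with all 6 libraries and -0.21 (SE 0.15) without control replicate 2, while talin (Tln1), which activates integrins from inside the cell, was lowest of the list with all 6 libraries at -0.30 (SE 0.25) and was at -0.10 (SE 0.14) without control replicate 2.

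Of 13 basement membrane genes and laminin partners tested out of 18, 0 were called in either fit, and the medians were 0.14 and -0.03. Nidogen 1, the bridge between laminin and collagen IV, had the largest value upward with all 6 libraries. Nid1 was at 13.2, 3.44 and 13.7 FPKM in controls and at 19.96, 21.0 and 21.1 in PM2.5 cells, with a log2 fold change of 1.15 (SE 0.49) with all 6 libraries and 0.59 (SE 0.08, adjusted p = 0.0648) without control replicate 2. Agrin, a heparan sulfate proteoglycan that binds laminin, had the largest downward in both fits. Agrn was at 18.3, 17.4 and 17.2 FPKM in controls and at 11.6, 11.0 and 6.81 in PM2.5 cells. Its log2 fold change in limma was -0.82 (SE 0.24, adjusted p = 0.875) with all 6 libraries and -0.83 (SE 0.23, adjusted p = 0.210) without control replicate 2. Neither pair of groups overlapped. Nephronectin, a ligand of the alpha 8 beta 1 integrin, was named after its values were seen. Npnt was at 0.933, 0.337 and 0.905 FPKM in controls and at 2.49, 2.40 and 2.58 in PM2.5 cells. Its log2 fold change in limma was 0.86 (SE 0.10, adjusted p = 0.0349) without control replicate 2, the largest upward of the list in that fit. This is under the fold limit on a scale where the added 1 FPKM understates the change of so low a gene. With all 6 libraries it was 1.04 (SE 0.22, adjusted p = 0.479).

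Of 14 matricellular genes and thrombospondin receptors tested out of 22, 0 were called, and the medians were -0.11 and -0.08. Periostin, a matricellular ligand of alpha v integrins, was the lowest in both fits. Postn was at 12.4, 9.87 and 12.1 FPKM in controls and at 3.76, 4.07 and 5.74 in PM2.5 cells, with no overlap and a log2 fold change of -1.19 (SE 0.22, adjusted p = 0.324) with all 6 libraries and -1.28 (SE 0.17, adjusted p = 0.0606) without control replicate 2. Ccn4, a matricellular protein of the CCN family, had the largest value upward with all 6 libraries at 0.54 (SE 0.40), with control replicate 2 at 9.005 FPKM against 23.8 and 22.1 in the other controls, and was at 0.12 (SE 0.18) without that library. Cd47, the receptor of thrombospondins 1 and 2, was named after its values were seen. It was at 36.4, 43.0 and 34.0 FPKM in controls and at 21.1, 22.1 and 27.5 in PM2.5 cells, with no overlap. Its log2 fold change in limma was -0.66 (SE 0.21, adjusted p = 0.875) with all 6 libraries and -0.57 (SE 0.14, adjusted p = 0.170) without control replicate 2.

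Of 12 latent TGF-beta genes tested out of 15, 0 were called, and the medians were 0.18 and -0.05. Ltbp3, a latent TGF-beta binding protein, had the largest value downward with all 6 libraries at -0.58 (SE 0.46) and was at -0.17 (SE 0.33) without control replicate 2, with control replicate 2 at 75.3 FPKM against 31.5 in each of the other controls.

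The deviations of control replicate 2 and PM2.5 replicate 3 followed transcript properties among these genes as they did across the whole table. Control replicate 2 was below all 5 other libraries for 7 of the 19 genes and above all 5 for 7 others. Its difference from the other controls ran with GC content at Spearman's rho of 0.535 across the 19 genes and 0.338 across 11735 genes, and with exon length at -0.553 and -0.300. PM2.5 replicate 3, set against the other PM2.5 libraries, ran with GC content at -0.889 across the 19 genes and -0.714 across 11735 genes. These correlations are across genes of the same libraries and are a description. Itgav and Itgb1, at a GC content of 43.5% and 44.8%, were high in PM2.5 replicate 3, and Lamb2, Lama5 and Itga3, at 57.9% to 59.9%, were low in it. Thbs2 has a GC content of 48.4%, and its PM2.5 replicate 3 was the highest of its group. With GC content and gene length corrected in each library, an alternative added later with the data in view, its log2 fold change was -1.05 (SE 0.13, adjusted p = 0.0769) with all 6 libraries and -1.01 (SE 0.07, adjusted p = 0.00333) without control replicate 2. The same correction with all 6 libraries gave -0.01 for Fn1, 0.12 for Itgav, -0.11 for Lama4 and -0.50 for Lamb1. It called 0 of the 19 genes, where 17 of 11735 genes were called. Without control replicate 2 it called Thbs2 alone of the 19, where 132 of 11735 genes were called. In limma it put 3121 of all genes at an unadjusted p under 0.05, against 1885 of 11884 without the correction. Low p-values were thus more frequent in the whole table. Fn1 (-0.67), Lamb2 (-0.49), Tnc (-0.47), Itgb5 (-0.46) and Lamb1 (-0.44) had adjusted p-values in limma of 0.00891, 0.0155, 0.0375, 0.0391 and 0.0468 but were under the fold limit.

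**Figure D4:**
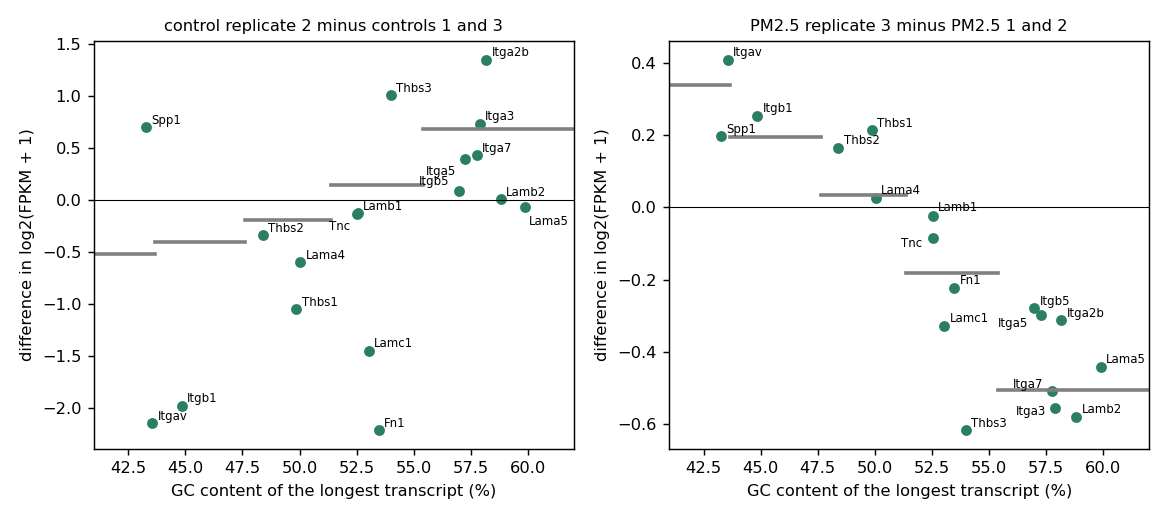
Difference in log2(FPKM + 1) of control replicate 2 from the mean of control replicates 1 and 3 (left) and of PM2.5 replicate 3 from the mean of PM2.5 replicates 1 and 2 (right) against transcript GC content, for 18 of the genes (points) and as the median of all genes in each quintile of GC content (grey lines). The medians run from -0.52 to 0.68 on the left and from 0.34 to -0.51 on the right, and the points for PM2.5 replicate 3 descend with GC content.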

How the data were processed

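RNA-seq of 6 GC-2spd libraries was used, 3 control and 3 exposed to PM2.5. The authors prepared paired-end libraries from total RNA with an NEBNext Ultra kit, mapped the reads with HISAT2 2.0.5, counted them with featureCounts 1.5.0-p3 (versions from the submitters' processing notes, which name the genome build mm9) and deposited FPKM per gene. The authors called differential expression with DESeq2. The members and gene lists were chosen with earlier results of these data known.

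Genes were matched by Ensembl ID to GENCODE M21 (GRCm38), which gave a length for 54495 of 54886 genes. FPKM multiplied by exon length fell on whole reads (within 0.05) for 98.1% to 98.4% of values under 50 reads, which gave the reads and the floor of 3 reads. The deposited FPKM were tested on the scale of log2(FPKM + 1) in limma 3.58.1, with its trend and robust settings (R 4.3.3 and statmod 1.5.0), for the 11884 genes that averaged 1 FPKM or more. A gene was called when its p, adjusted by Benjamini-Hochberg over all these genes, was under 0.05 and its log2 fold change was beyond 1 in either direction. The fit was made with all 6 libraries and without control replicate 2. It was also run on simulated data, in which no library deviated as control replicate 2 does, so that run does not cover this library.

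All members are counted, and described by FPKM above the filter and by reads below it, and from each partner list the genes with the largest value in each direction are named, with Npnt and Cd47 added later. Results of some genes are not reported here. Promoters came from RefSeq (GRCm38.p6). Alternatives tried were a pseudocount of 0.1, no filter, no fold limit, other scalings, voom, a replicate block, a correction for GC content and length, and each library left out. Tables were handled with numpy 2.4.6 and pandas 2.3.3 and drawn with matplotlib 3.10.9.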

Additional observations from a re-analysis of the deposited data

How the results depend on the processing

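With all 6 libraries, 0 of the 19 genes were called by limma under every alternative except without control replicate 2. That fit called 1, Thbs2, where 84 of all 11884 genes were called. Of all genes tested, 0 were called with no filter, with voom or with the replicate block, with or without the GC and length correction. The same held with any other single library left out. In those settings the 0 of 19 is the result for every gene. A pseudocount of 0.1, the other scalings and the GC and length correction alone called 6 to 17 of all genes. Without control replicate 2 the count of 1 became 0 with no filter on low values (adjusted p of Thbs2 0.0556), where 53 of 24963 genes were called. It became 0 with the replicate block (0.1004), where 92 of 11884 genes were called. It was also 0 with GC content and gene length corrected with the replicate block (0.0698), where 51 of 11735 genes were called. Wherever the block was used without control replicate 2, PM2.5 replicate 2 stood alone under its number and did not enter the comparison. Leaving out 1 PM2.5 library as well gave 0 to 1, where 0 to 356 of all genes were called. The replicate numbers were not taken to pair the libraries, because the labels do not say that they do. Deviations from the group mean correlated at -0.285, 0.180 and 0.253 for same-numbered libraries. For differently numbered ones the correlations ran from -0.280 to 0.292. These values cannot decide on pairing, because the deviations within a group sum to 0 and control replicate 2 and PM2.5 replicate 3 stood apart. The median log2 fold change of the 19 genes stayed below 0, from -0.37 to -0.10 with all 6 libraries and from -0.30 to -0.19 without control replicate 2. The sign held under every alternative for 10 of the 19 genes with all 6 libraries and turned for 9 (Fn1, Itga2b, Itga3, Itga7, Itgav, Itgb1, Lama4, Lamc1 and Thbs1), and without control replicate 2 it held for 15 and turned for 4 (Itga2b, Itga7, Lamc1 and Thbs3). Voom on the recovered reads moved the median of all genes to 0.17 with all 6 libraries. Of the 26 genes below the filter, 10 had at most 9 reads in every library, and differences in them were not detectable at this depth.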
